A study of Mus musculus with 4 samples.

Results

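Toll-like receptors and the proteins that work beside them were followed at the mRNA level in articular cartilage of young and adult mice, with and without a cartilage injury. The 10 genes were taken from the table by their gene symbols: the receptors Tlr1, Tlr2, Tlr3, Tlr4, Tlr7, Tlr8 and Tlr9, the co-receptors Cd14 and Ly96, and the adaptor Myd88. All 10 were found among the 24532 genes of the table, and all 10 were among the 18181 genes above 0 in at least 1 library. RNA sequencing was done on 4 libraries from male wild type C57BL/6 mice, namely sham and injured cartilage of young mice and sham and injured cartilage of adults. Young mice were 3 weeks old. Adult mice were 10 weeks old in the study's methods, while the labels give 12 weeks in the titles and 14 weeks in the age field. The injured cartilage was taken 3 days after a full-thickness cut into the patellar groove of the femur, although the sample labels speak of DMM surgery, in which the medial meniscus is destabilized. The adult sham sample carries days 3 to 14 in its label. Cartilage of 5 sham or 10 injured mice was pooled before RNA extraction, so that every group was 1 library, no spread between replicates exists, and every difference below is a difference between 2 libraries without a test. The values are FPKM, that is, fragments per kilobase of transcript and scaled to the number of mapped fragments, and they are comparable between genes because they are already divided by length.

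Toll-like receptors recognise molecules that are typical of microbes or released from damaged tissue. Tlr1, Tlr2 and Tlr4 sit on the cell surface and bind bacterial lipopeptides and lipopolysaccharide, while Tlr3, Tlr7, Tlr8 and Tlr9 sit in endosomes and bind RNA or DNA. Cd14 hands lipopolysaccharide and other ligands to the receptors, and Ly96, also called MD-2, is the subunit of the Tlr4 complex that holds lipopolysaccharide. All of these receptors except Tlr3 signal through Myd88, whereas Tlr3 uses the adaptor Ticam1 (TRIF), which Tlr4 can also use. Macrophages and other myeloid cells are the best known sources of these receptors, and chondrocytes are known to express Tlr2 and Tlr4 as well.

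The promoters are shown first, as stretches around matched motifs that were not aligned with one another. Of the 10 genes, 6 had an entry in the RefSeq promoter table of build GRCm38.p6, each entry running from 250 bases before to 50 bases after an annotated start, and Tlr1 had 2 starts. Cd14, Ly96, Tlr4 and Tlr7 had no entry. Searched on both strands were the NF-kB core GGNNTTTCC, the interferon-stimulated response element core GAAANNGAA (ISRE), the PU.1 motif GAGGAAGT and the AP-1 motif TGANTCA. Among 32851 promoters of the same length, these were found in 5.82%, 8.56%, 3.2% and 7.81%. The stretches below run 5′ to 3′ on the gene's own strand, with the matched motif in capitals and 30 bases shown, or 120 where the longer stretch held no annotated exon.
Myd88, chr9:119340040-119340069, minus strand: ggagcttctcgGAAAGCGAAagaaggaggg
Tlr1, chr5:64933563-64933592, minus strand: attaaatgttgGAGGAAGTaggagcttgaa
Tlr3, chr8:45410572-45410601, minus strand: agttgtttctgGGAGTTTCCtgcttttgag
Tlr8, chrX:167264333-167264452, minus strand: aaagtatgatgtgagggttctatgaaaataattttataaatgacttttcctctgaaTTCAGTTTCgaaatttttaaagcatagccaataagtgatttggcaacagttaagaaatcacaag
Tlr9, chr9:106222478-106222597, plus strand: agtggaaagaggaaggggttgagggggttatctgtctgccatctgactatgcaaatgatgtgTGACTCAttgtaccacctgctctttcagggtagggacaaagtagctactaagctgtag

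In Myd88 the capitals mark an ISRE core match from 40 to 32 bases before the start, in a stretch that overlaps the annotation of Myd88. Tlr8 held an ISRE core match on the opposite strand (TTCAGTTTC), from 67 to 59 bases before its start. Tlr1 held a PU.1 match 23 to 16 bases before 1 of its starts, in a stretch that overlaps the annotation of Tlr1 itself, and the window of the other start held no match. Tlr3 held an NF-kB core match, in a stretch that overlaps the annotation of Gm45542 and of Tlr3 itself, and Tlr9 an AP-1 match upstream and a PU.1 match after the start. Myd88 had a further NF-kB core match after its start. The Tlr2 window held none of the 4 motifs, which says only, as for the other Tlr1 start, that these letters are not in the window. These are matches of letters, and none of them was tested for binding.

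After injury every member had a higher FPKM than in the sham library of the same age. In bulk tissue a change in the number of cells and a change in RNA per cell cannot be told apart, and the summed FPKM of 14 macrophage markers was also higher after injury, at 2180 against 212.1 in young and 1825 against 331.8 in adult cartilage. The largest part of each sum was 1 gene, Lyz2, at 1271 against 141.5 in young and 1090 against 183.2 in adult cartilage. In young cartilage Cd14, Tlr8, Tlr7, Tlr1 and Myd88 were at least 2-fold higher on the log2(FPKM + 1) scale, which is 5 of 10 members, where 4.57% of the 18181 genes passed the same limit. In adult cartilage the same 5 genes passed together with Tlr4 and Ly96, which is 7 of 10, against 6.9% of all genes. All 5 genes that passed in young cartilage therefore passed at both ages on the deposited values, as did 3.01% of all genes. The counts of members 2-fold lower were 0 in both comparisons, where 1.27% of all genes in young and 1.46% in adult cartilage were lower, so that 0 of 10 says nothing particular of the members. A log2 ratio above 0 was found for 10 of 10 members at both ages, while 47.4% of all genes were above 0 in young and 67.2% in adult cartilage. The median log2 ratio of the members was 1.02 in young and 1.12 in adult cartilage, with medians over all genes of 0.00 and 0.14. In adult cartilage the count depended on the scaling between the libraries. After median-of-ratios scaling Tlr4 and Myd88 were under the limit and 5 members were above it, namely Tlr1, Tlr7, Tlr8, Cd14 and Ly96. After quantile normalization Tlr8 was under it as well and Tlr1, Tlr7, Cd14 and Ly96 were above it. The genes past 2-fold at both ages were then Tlr1, Tlr7, Tlr8 and Cd14 on the former scale and Tlr1, Tlr7 and Cd14 on the latter.

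**Figure D1:**
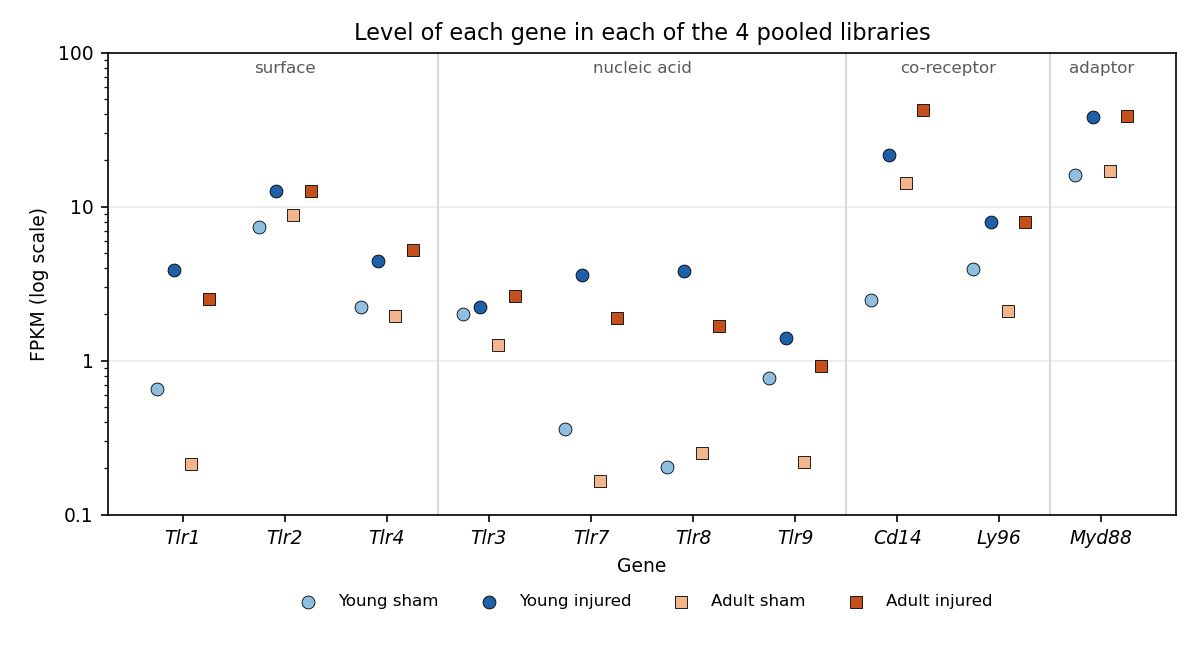
Level of each gene in FPKM on a log axis, with 1 point per pooled library (circles, young; squares, adult; pale, sham; dark, injured), grouped into surface receptors, receptors for nucleic acids, co-receptors and adaptor. The dark points lie above the pale points of the same age for every gene, from the near overlap of Tlr3 in young cartilage (2.0 and 2.24 FPKM) to the wide gap of Tlr8 (0.203 and 3.83 FPKM).

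**Figure D2:**
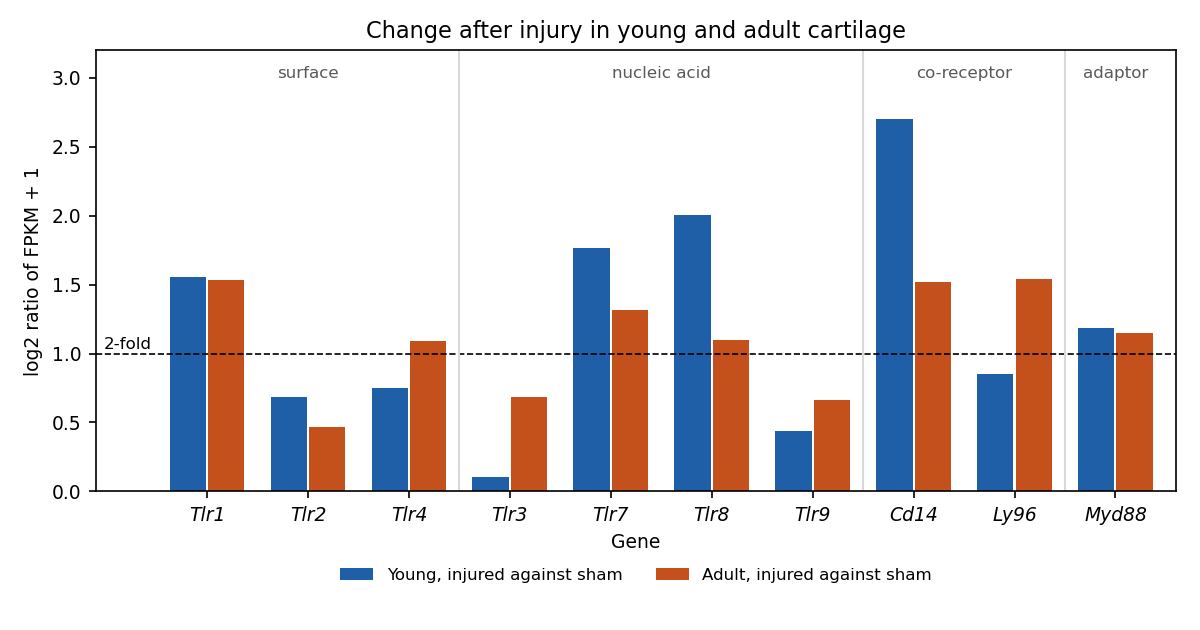
Log2 ratio of FPKM + 1 between injured and sham cartilage for each gene, in young (blue) and adult (orange) mice; the dashed line is the 2-fold limit and each bar compares 2 libraries. Cd14 has the highest bar in young cartilage (2.70), while in adult cartilage Ly96 (1.54), Tlr1 (1.54) and Cd14 (1.52) lie close together.

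Among the surface receptors, Tlr2 was the most abundant in all 4 libraries. Tlr2 (Entrez 24088, chromosome 3, 83836272 to 83841824, as all positions on build GRCm38.p6, which mm10 is), which binds lipopeptides together with Tlr1 or Tlr6, was at 7.45 FPKM in sham and 12.6 in injured cartilage of young mice and at 8.87 and 12.7 FPKM in that of adult mice. The injured libraries were thus nearly equal, and the log2 ratios of injury to sham, 0.69 for young and 0.47 for adult mice, stayed below 2-fold. Tlr1 (21897, chromosome 5, 64924680 to 64933600), a partner of Tlr2, was at 0.660, 3.89, 0.212 and 2.51 FPKM in this order of libraries. Its log2 ratios of FPKM + 1 were 1.56 for the young and 1.54 for the adult pair, and its plain FPKM ratios 5.89 and 11.9. The plain ratios rest on about 53 fragments in young sham and 20 in adult sham cartilage, under the assumption on depth given further on. Of the 3322 words of 31 bases in Tlr1 transcripts, 665 also occur in another gene, mostly in the neighbouring Tlr6, so that part of its reads could have been assigned to either gene. In the other members at most 1.27% of the words were shared.

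Tlr4 (21898, chromosome 4, 66827551 to 66846581), the receptor for lipopolysaccharide, was at 2.25 FPKM in sham and 4.47 in injured cartilage of young mice and at 1.95 and 5.26 FPKM in that of adult mice. Injury changed its log2 value by 0.75 at the young and 1.09 at the adult age, and only the adult value passed 2-fold. The ratio of Tlr2 to Tlr4 was 3.31 in young sham and 4.56 in adult sham cartilage and 2.82 and 2.41 in the injured libraries, so that Tlr2 exceeded Tlr4 throughout. The ratio of Tlr2 to Tlr1 went from 11.3 to 3.24 in young and from 41.8 to 5.03 in adult cartilage after injury.

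The receptors for nucleic acids split into a pair that was more than 2-fold higher after injury at both ages and a pair that stayed below 2-fold, on the log2 scale of the deposited FPKM + 1. The split depended on the setting in adult cartilage. There Tlr8 was at 0.88 after quantile normalization and Tlr9 at 1.05 with an equal FPKM total per library, Tlr3 and Tlr9 passed 2-fold with 0.1 FPKM added, and Tlr7 and Tlr8 passed at neither age with 5 FPKM added. Tlr7 (170743) and Tlr8 (170744) bind RNA from viruses and bacteria and lie side by side on the X chromosome, at 167303380 to 167330574 and at 167241123 to 167264329. Tlr7 was at 0.358 FPKM in sham and 3.63 in injured cartilage of young mice and at 0.165 and 1.90 FPKM in that of adult mice. Tlr8 was at 0.203, 3.83, 0.25 and 1.68 FPKM in that order. Both genes were below 1 FPKM in either sham library and above it in either injured library. The log2 ratios of FPKM + 1 were 1.77 and 1.32 for Tlr7 in the young and the adult pair, and 2.0 and 1.1 for Tlr8. On the plain FPKM scale the ratios were 10.1 and 11.5 for Tlr7 and 18.9 and 6.72 for Tlr8, so that Tlr7 showed about the same fold at both ages and Tlr8 a larger fold in young mice. Between the injured libraries Tlr8 was 2.27-fold and Tlr7 1.91-fold higher in young than in adult cartilage in plain FPKM.

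Few fragments lie behind the low values. If the regular steps of the lowest FPKM values of the table stand for 1 fragment each, the libraries held about 26600000, 26600000, 31100000 and 26100000 fragments for the young sham and injured and the adult sham and injured library. Under that assumption, with the longest listed transcript, Tlr8 rested on about 19 fragments in young sham and 349 in young injured cartilage, and on about 27 and 151 in adult cartilage. Tlr7 rested on about 37, 376, 20 and 194 fragments, whereas Myd88 had between 844 and 1988 in the 4 libraries. Whole fragment numbers were not recovered, so these are orders of size and carry no interval.

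Tlr3 and Tlr9 were the other receptors for nucleic acids. Tlr3 (142980, chromosome 8, 45395665 to 45411075), which recognises RNA duplexes, was at 2.0 FPKM in sham and 2.24 in injured cartilage of young mice and at 1.27 and 2.64 FPKM in that of adult mice. Its injury log2 ratio was 0.11 at the young and 0.68 at the adult age, both below 2-fold, and after quantile normalization the young value was −0.04. In plain FPKM the adult ratio of Tlr3 was 2.08, so that the added 1 FPKM brought it below the limit. Adult sham was the lowest of the 4 libraries, and the other 3 lay close together. Tlr9 (81897, chromosome 9, 106222598 to 106226876), a sensor of unmethylated CpG DNA, was at 0.779, 1.41, 0.219 and 0.929 FPKM, with log2 ratios of 0.44 and 0.66. In plain FPKM it was 1.81-fold higher after injury in young and 4.24-fold higher in adult cartilage, the latter against about 24 fragments in the adult sham library under the assumption above. B cells are known to express Tlr9, and the summed FPKM of 7 B cell markers was 56.4, 77.5, 11.6 and 21.2 in the young sham and injured and the adult sham and injured library, with none of the 7 at 0. Their part in the Tlr9 values was not tested.

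The make-up of the receptor transcripts differed between sham and injured cartilage. The 7 receptors summed to 13.7 FPKM in sham and 32.1 in injured cartilage of young mice and to 12.9 and 27.6 FPKM in that of adult mice. Tlr2 made up 54.4% of this sum in young sham and 68.6% in adult sham cartilage, and 39.3% and 45.9% in the injured libraries. Tlr7 and Tlr8 together went from 4.10% to 23.2% in young and from 3.21% to 13.0% in adult cartilage. Tlr1 went from 4.82% to 12.1% and from 1.64% to 9.11%. The share of Tlr3 went from 14.6% to 6.97% in young cartilage and was 9.82% and 9.57% in adult cartilage. Tlr4 kept a share between 13.9% and 19.1% in all 4 libraries. Of the sum of these 7 receptors, Tlr3, Tlr7, Tlr8 and Tlr9 together held 24.4% in sham and 34.6% in injured cartilage of young mice and 14.7% and 25.9% in that of adult mice. Tlr13, a further sensor of RNA described below, is not part of this sum.

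**Figure D3:**
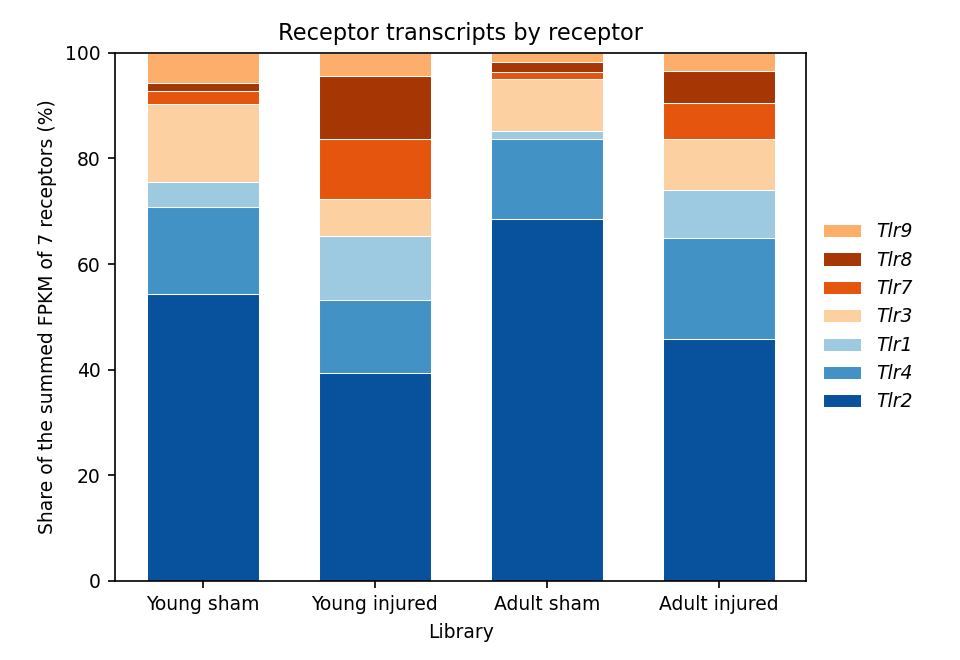
Share of the summed FPKM of the 7 receptors taken by each receptor in the 4 libraries, in percent, with surface receptors in blue and receptors for nucleic acids in orange. Tlr2 is the largest block in each bar, and the blocks of Tlr7 and Tlr8 widen from 4.10% to 23.2% in young and from 3.21% to 13.0% in adult cartilage.

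Of the co-receptors, Cd14 stood apart because it was already high in adult sham cartilage. Cd14 (12475, chromosome 18, 36725064 to 36726815) was at 2.47 FPKM in sham and 21.6 in injured cartilage of young mice and at 14.2 and 42.5 FPKM in that of adult mice. Young sham was far below the other 3 libraries, and adult injured was the highest. Its injury log2 ratio was 2.70 in the young and 1.52 in the adult pair, a difference of 1.18 that was the largest among the members, and it was not tested. Cd14 passed 2-fold after injury at both ages under every scaling, pseudocount and filter tried. Between the sham libraries it was 5.74-fold higher in adult cartilage in plain FPKM, with a log2 ratio of FPKM + 1 of 2.13. The ratio of Cd14 to Tlr4 FPKM was 1.1 in young sham and between 4.83 and 8.08 in the other libraries.

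Ly96 (17087, chromosome 1, 16688456 to 16709605) followed a different order. It was at 3.96 FPKM in sham and 7.94 in injured cartilage of young mice and at 2.09 and 7.99 FPKM in that of adult mice, so that the injured libraries were level and adult sham was the lowest. The injury log2 ratio of Ly96 was 0.85 in the young and 1.54 in the adult pair. The plain ratio in young mice, 2.01, was above 2, and the added 1 FPKM brought the value below the limit. Relative to Tlr4, the receptor it is bound to, Ly96 was at 1.76 and 1.78 in young sham and injured and at 1.07 and 1.52 in adult sham and injured cartilage. Cd14 and Ly96 are thus both parts of lipopolysaccharide recognition but differed in the sham libraries in opposite directions, with Ly96 at 0.528 and Cd14 at 5.74 times the young sham level in adult sham cartilage.

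Myd88 (17874, chromosome 9, 119335934 to 119340018), which links most of these receptors to the IRAK kinases and NF-kB, was the most abundant member in 3 libraries and came after Cd14 in adult injured cartilage. It was at 16.2 FPKM in sham and 38.1 in injured cartilage of young mice and at 17.0 and 38.8 FPKM in that of adult mice. On the deposited values the sham libraries were close to each other and so were the injured ones. Between adult and young sham the log2 ratio of Myd88 was 0.07 as deposited and 0.48 after median-of-ratios scaling. The injury log2 ratio of Myd88 was 1.19 in the young and 1.15 in the adult pair, and 1.17 and 0.82 after median-of-ratios scaling. Ticam1, the adaptor of Tlr3, was at 5.93, 6.21, 5.41 and 5.97 FPKM, and the ratio of Myd88 to Ticam1 was 2.73 and 6.13 in young sham and injured and 3.14 and 6.5 in adult sham and injured cartilage. Tirap, which bridges Myd88 to Tlr2 and Tlr4, had log2 ratios after injury of 0.08 and 0.51, and Sarm1 of −0.01 and 0.18. Ticam2, which bridges Ticam1 to Tlr4, had 0.75 and 0.90, at levels of at most 1.63 FPKM. Of the 5 other adaptors 1 passed 2-fold with 1 FPKM added, Pik3ap1 (BCAP), with 1.54 in young and 1.58 in adult cartilage. In plain FPKM Ticam2 was 3.88-fold and 4.0-fold higher after injury and Pik3ap1 3.88-fold and 4.89-fold.

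Comparing the ages, 6 of the 10 members had the larger injury log2 ratio in young mice (Tlr1, Tlr2, Tlr7, Tlr8, Cd14 and Myd88) and 4 in adult mice, against 33.7% of all genes with the larger ratio at the young age. That share depended on the scaling, and after median-of-ratios scaling it was 50.7%, with 6 of 10 members. For Tlr1 and Myd88 the difference was 0.02 and 0.04. The direction for Tlr1 and Tlr7 depended on the added value, since their plain FPKM ratios were larger in adult mice (11.9 against 5.89 and 11.5 against 10.1). With 0.1 FPKM added, the log2 ratio of Tlr1 was larger in adult mice (3.07 against 2.39). That of Tlr7 was still larger in young mice (3.02 against 2.92). Once every library was brought to an equal FPKM total, 4 members had the larger ratio in young mice. None of these differences has a test, since each rests on 4 libraries. When the injured libraries were set against each other, 0 members were at least 2-fold higher in young cartilage on the log2(FPKM + 1) scale, and 3.09% of all genes were. This count depended on the added 1 FPKM, since Tlr8 was at 1.14 with 0.1 FPKM added. At least 2-fold lower in young cartilage were 0 members and 1.8% of all genes. The log2 ratios of young against adult injured cartilage ran from −0.95 for Cd14 to 0.85 for Tlr8, with Tlr7 at 0.67 and Tlr1 at 0.48, and those of Tlr2, Ly96 and Myd88 were between −0.03 and −0.01. After scaling by any of the 3 methods Cd14 passed 2-fold in the adult direction, with values from −1.14 to −1.02.

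Between the sham libraries Cd14 was at least 2-fold higher in adult cartilage, 1 of 10 members, as were 2.66% of all genes. At least 2-fold lower were 0 members and 10.6% of all genes. That count depended on the added 1 FPKM, since with 0.1 FPKM added Tlr1 was at −1.28 and Tlr9 at −1.46. In plain FPKM Tlr1, Tlr9 and Tlr7 were 3.11-fold, 3.56-fold and 2.17-fold lower in adult sham cartilage. Of the other 9 members, 6 had log2 ratios from −0.68 for Ly96 to −0.14 for Tlr4. The remaining 3, Tlr2, Tlr8 and Myd88, lay between 0.06 and 0.22. The general level of the libraries bears on these values. Among 10891 genes that reached 1 FPKM in each library, the median log2 ratio was −0.30 for adult against young sham, 0.23 for injury in adult and −0.04 for injury in young cartilage. After median-of-ratios scaling these medians were 0.07, −0.06 and −0.05, so that the deposited values carry a shift of −0.37 between the shams and of 0.29 for injury in adult cartilage. On that scale Tlr4 was at 0.16 rather than −0.14 between the shams, and Cd14 was at 2.51. Myd88 was at 0.48 rather than 0.07, and Tlr2 at 0.62 rather than 0.22. Cell type markers also differed between the shams. Of 14 macrophage markers 5 were at least 2-fold higher and 1 lower in adult sham. Of 10 chondrocyte markers 6 were at least 2-fold lower and 1 higher, which was Comp with a log2 ratio of 2.44. All 7 of 7 B cell markers were at least 2-fold lower. Their part in the differences of the members was not tested. The comparisons between the ages use the same libraries as the injury comparisons and are not independent of them.

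The other genes of the pathway were counted from 8 lists of 71 genes. In young cartilage 26 of the 71 genes were at least 2-fold higher after injury and 0 lower, and in adult cartilage 25 higher and 0 lower, with list medians of 0.42 and 0.63 against 0.00 and 0.14 over all genes. The shares of all genes were 4.57% and 6.9% higher and 1.27% and 1.46% lower. After median-of-ratios scaling 26 genes were higher in young and 21 in adult cartilage, where Hmgb1, Vcan, Unc93b1 and Tnf no longer passed. The remaining receptors of the family were divided. Tlr13, a sensor of bacterial ribosomal RNA, was at 0.600 FPKM in sham and 8.54 in injured cartilage of young mice and at 0.390 and 4.72 FPKM in that of adult mice, log2 ratios of 2.58 and 2.04. Cd180, a surface relative of Tlr4, had ratios of 1.55 and 1.99. Tlr6, which pairs with Tlr2, had 0.58 and 0.74, and Tlr5, the flagellin receptor, −0.22 and 0.15. Tlr11 and Tlr12 stayed below 0.34 FPKM in all libraries.

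Of 6 accessory and trafficking genes, 4 passed at both ages on the deposited values, and Unc93b1 no longer passed in adult cartilage after median-of-ratios scaling. Unc93b1, which carries the nucleic acid receptors to endosomes, rose from 13.1 to 47.2 FPKM in the young pair and from 17.3 to 42.3 in the adult pair. Lbp, which delivers lipopolysaccharide to Cd14, rose from 23.3 to 53.4 and from 58.7 to 227.8 FPKM, and like Cd14 it was higher in adult than in young cartilage in both conditions. Ly86, the partner of Cd180, rose by 2.55 and 1.86 on the log2 scale, and the scavenger receptor Cd36 by 2.76 and 2.27. The folding helpers Cnpy3 and Hsp90b1 had ratios between −0.26 and 0.62.

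Of the 14 genes on the list of kinases and ubiquitin ligases, which also holds partner proteins such as Tab2, 0 passed 2-fold after injury in either direction. Among all genes 4.57% in young and 6.9% in adult cartilage were 2-fold higher, so that a count of 0 is near the background. The list medians were −0.02 in young and 0.41 in adult cartilage, and the latter was 0.13 after median-of-ratios scaling. Irak4, the kinase recruited to Myd88, had ratios of 0.55 and 0.81. Chuk, a kinase of the NF-kB inhibitor, had −0.04 and 0.74, the ubiquitin ligase Traf6 −0.11 and 0.63, and its binding partner Tab2 −0.03 and 0.61. In the list of 9 brakes, 1 gene passed in young cartilage, the transcriptional repressor Atf3 (1.11), and 0 in adult cartilage, where Tnip1 was the highest (0.87). Irak3, an inhibitory IRAK, had ratios of 0.69 and 0.46, and the ubiquitin-editing enzyme Tnfaip3 (A20) of 0.29 and 0.68. Of 7 transcription factors, Irf7 (2.38 and 1.46) and Irf5 (1.82 and 1.92) passed at both ages, and both are known to act downstream of Tlr7, Tlr8 and Tlr9. The NF-kB subunit gene Nfkb2 had 0.32 and 0.73 and Rel 0.42 and 0.54.

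Of 8 genes for reported endogenous ligands, 5 passed in young and 4 in adult cartilage, against 4.57% and 6.9% of all genes. Of the 4 in adult cartilage, Hmgb1 and Vcan no longer passed after median-of-ratios scaling, and the adult list median went from 0.99 to 0.68. Fn1, which encodes fibronectin, rose from 226.3 to 1869 FPKM in the young pair and from 441.8 to 3803 in the adult pair. Saa3, an acute phase protein, was at 0.0719 FPKM in young sham and listed at 0 in adult sham, and reached 24.6 and 94.9 FPKM after injury. Tnc had log2 ratios of 1.41 and 0.84, and Hmgb1 of −0.23 and 1.18. Of 16 target genes, which are induced by NF-kB or interferon in activated cells, 11 passed in young and 12 in adult cartilage, and 0 were lower. Il1b rose from 0.394 to 8.27 FPKM in the young pair and from 0.453 to 22.2 in the adult pair. Ccl2 reached 34.1 and 13.0 FPKM, from 0.0948 FPKM in young sham and a listed 0 in adult sham cartilage. Cxcl10 rose by 3.03 and 2.40 on the log2 scale, and Cxcl1 reached 2.66 and 6.42 FPKM.

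**Figure D4:**
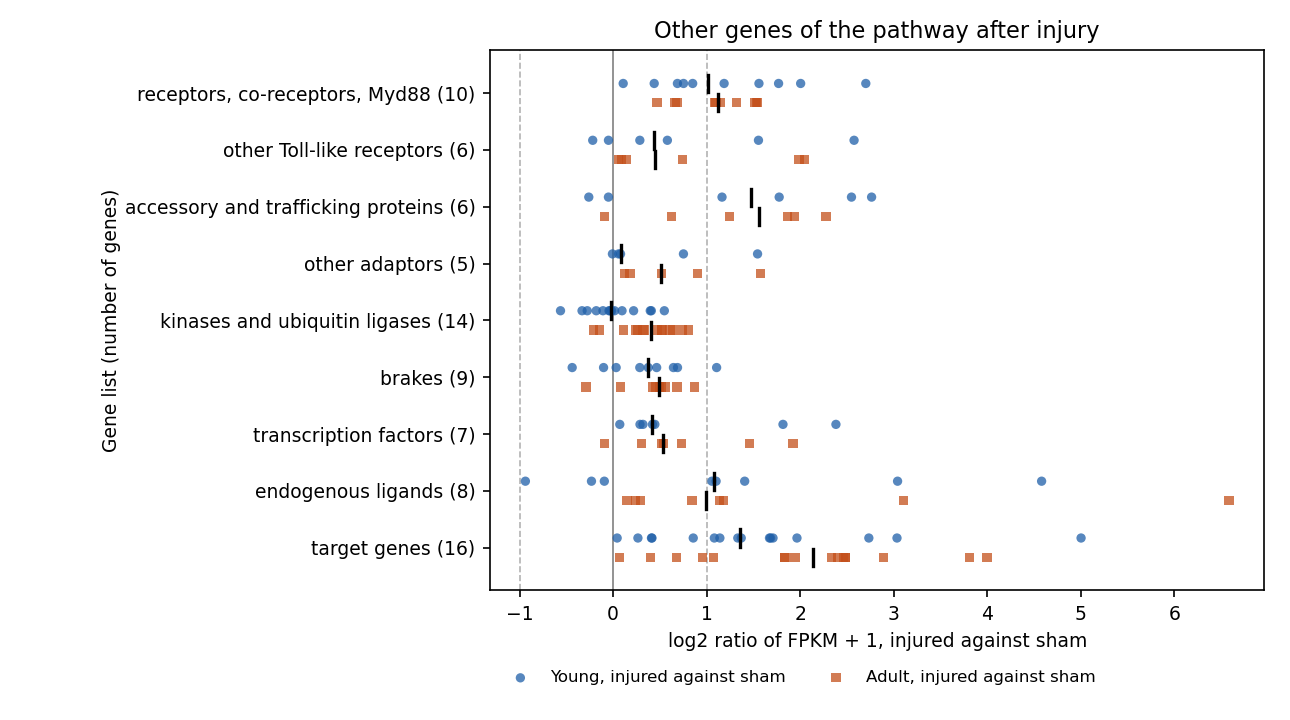
Log2 ratio of FPKM + 1 between injured and sham cartilage for the 10 genes and for 8 lists of other pathway genes, with 1 point per gene, young in blue circles, adult in orange squares, black bars for list medians and dashed lines at 2-fold. The 14 genes of the list of kinases and ubiquitin ligases all lie inside the 2-fold lines, while the target genes have medians of 1.35 in young and 2.14 in adult cartilage.

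Markers of other cell types were read in the same libraries. Of all genes, 4.57% in young and 6.9% in adult cartilage were at least 2-fold higher after injury, and 1.27% and 1.46% lower. The 10 chondrocyte markers reached 1 FPKM in either sham library without exception. After injury 2 of them were 2-fold lower in young and 4 of them 2-fold higher in adult cartilage, with medians of −0.33 and 0.34. After median-of-ratios scaling the medians were −0.34 and 0.00, and 3 markers were 2-fold higher in adult cartilage, without Col11a1. Matn1 was at −1.01 in young and 2.28 in adult cartilage, Prg4 at −2.28 and −0.42, Col9a1 at −0.47 and 1.95 and Acan at 0.26 and 1.38. Of 14 macrophage markers, 12 were at least 2-fold higher after injury at either age and 0 were lower, with log2 medians of 3.29 in the young and 1.98 in the adult pair. Their summed FPKM was 212.1 in sham and 2180 in injured cartilage of young mice and 331.8 and 1825 in that of adult mice, and none of the 14 was at 0. Lyz2 was the largest part of each sum. Ctss had ratios of 4.63 and 3.69, C1qb of 4.15 and 1.71, Msr1 of 3.91 and 2.93 and Fcgr1 of 3.88 and 2.72. All 6 endothelial markers passed at both ages on the deposited values, with medians of 1.92 and 1.51 (1.88 and 1.3 after median-of-ratios scaling, where 5 of 6 passed in adult cartilage, without Pecam1), among them Emcn (2.42 and 1.84), Pecam1 (2.05 and 1.06), Plvap (1.94 and 1.85) and Cdh5 (1.89 and 1.72). Neutrophil markers had medians of 0.91 and 0.42 with 4 and 2 of 12 past 2-fold. After median-of-ratios scaling these medians were 0.88 and 0.13, and 3 passed in young cartilage, without Camp. Osteoclast markers had medians of 1.08 and 1.80 with 3 and 5 of 6, and B cell markers 0.30 and 0.62 with 0 and 1 of 7. Dendritic cell markers, of which Xcr1 and Clec9a were listed at 0 in adult sham, had 0.09 and 0.16 with 0 and 1 of 7. The 1 dendritic cell gene that passed, Cd209a, no longer did after median-of-ratios scaling. Counts of 0 and 1 of 7 are near the background. Among the neutrophil markers Csf3r had ratios of 1.77 and 2.01, Cxcr2 of 0.95 and 1.49, S100a9 of 1.1 and 0.24 and S100a8 of 1.06 and 0.15. The osteoclast genes Atp6v0d2 (1.26 and 2.08), Acp5 (1.31 and 1.99), Ocstamp (1.20 and 1.91) and Dcstamp (0.69 and 1.70) were higher in the adult pair than in the young pair. The B cell gene Ms4a1 had 0.30 and 1.25, Cd79a 0.47 and 0.84 and Cd22 0.19 and 0.62. Of the dendritic cell genes Cd209a had 0.68 and 1.0, Flt3 0.44 and 0.58, Siglech 0.08 and 0.35 and Zbtb46 −0.11 and −0.34. The part of these cell types in the levels of the receptors was not tested.

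**Figure D5:**
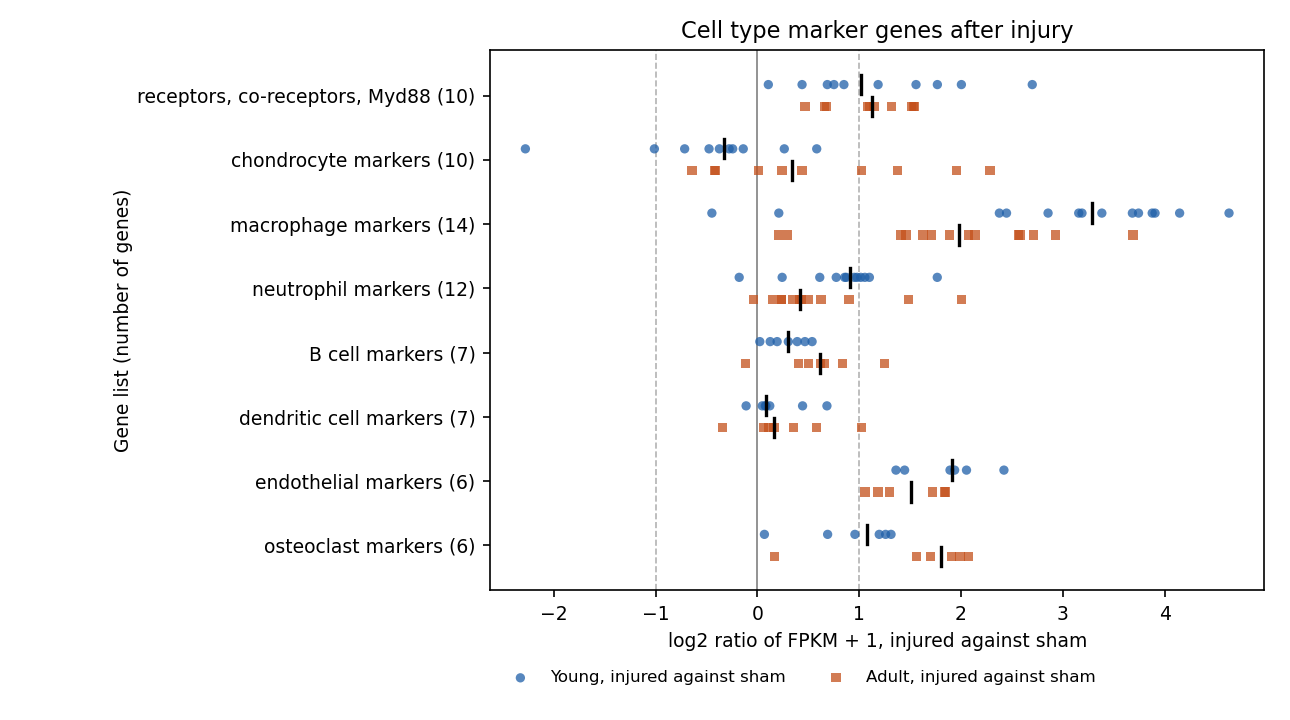
Log2 ratio of FPKM + 1 between injured and sham cartilage for the 10 genes and for 7 lists of cell type markers, with 1 point per gene, young in blue circles, adult in orange squares, black bars for list medians and dashed lines at 2-fold. The macrophage medians lie at 3.29 and 1.98, to the right of the medians of the receptors and their partners at 1.02 and 1.12.

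The genes with the closest profile over the 4 libraries were found by the Euclidean distance between log2(FPKM + 1) values, each gene centred on its own mean, among the 8055 genes whose mean reached 5 FPKM. With 4 points per gene this is a description of these libraries. For Myd88 the closest were Ly6c2 (distance 0.05), Zcchc24 (0.07) and Plxnd1 (0.08). For Tlr2 they were Htatip2 (0.04), Lrrfip1 (0.04) and Pgd (0.05), and for Tlr4 B4galt1 (0.07), Rtn4 (0.12) and Chil3 (0.13). The closest to Cd14 was Ly6a at 0.24, which was at 5.98 FPKM in sham and 53.8 in injured cartilage of young mice and at 32.6 and 84.9 FPKM in that of adult mice, followed by Fbln2 (0.44) and C4b (0.54). The distance grows with the size of a profile, and the distance to a flat profile was 2.68 for Cd14, 1.17 for Myd88, 0.94 for Tlr4 and 0.60 for Tlr2. Among the members themselves, the closest pairs were Tlr1 and Tlr7 (0.22), Tlr7 and Tlr8 (0.23) and Tlr4 and Myd88 (0.31), and the farthest was Cd14 and Tlr9 (2.61).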

How the data were processed

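The authors pooled cartilage before RNA extraction, prepared strand-specific poly-A libraries sequenced as paired reads of 100 bases, and deposited FPKM per gene on mm10. The submitters' processing notes name HISAT2 2.1.0, StringTie 1.3.4d, STAR and SAMtools, with no role given. FPKM were used as deposited, and log2 ratios of FPKM + 1 were calculated for 4 comparisons of 2 libraries. With 1 library per group no p-value was calculated, and 2-fold was used as the limit. The precision is limited by the 1 library per group, and fragment counts are known only as the orders of size given with the values.

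The members and the lists were chosen with earlier results of these data known. Tried as alternatives were 0.1 or 5 FPKM as the added value, limits of 1.5-fold and 3-fold, an equal FPKM total per library (TPM), quantile normalization, median-of-ratios scaling, and leaving out genes that never reached 1 FPKM. A ratio that moved by over 1.5-fold, or a count outside 1.5 times its value, counted as moved. Named were all 10 members, the other receptors and adaptors, the 4 genes with the largest absolute injury log2 ratio from each further list, list genes past 2-fold against their list median, and the nearest profiles of Tlr2, Tlr4, Cd14 and Myd88. Cnpy3, Hsp90b1, Xcr1, Clec9a, Tnf, Vcan, Lyz2, Col11a1, Camp and Comp are named outside this rule, after their values were seen. Ighm, on the B cell list, was not found by symbol. Promoter sequences, coordinates and gene spans came from RefSeq (GRCm38.p6), and transcripts and exons from GENCODE M21. Protein sequences, planned for the receptors, were not used here, and 1 planned promoter motif and the values of 1 gene that the naming rule selects are not reported here. The calculation was tested on simulated data. Python 3.11.15, numpy 2.4.6, pandas 2.3.3 and matplotlib 3.10.9 were used.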

Additional observations from a re-analysis of the deposited data

Results flagged for a closer look

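Among the members and the pathway lists, 3 genes passed 2-fold after injury at 1 age and had the opposite sign at the other. The share of all genes that did so was not counted, so these 3 are listed without a background. Vcan had an injury log2 ratio of −0.94 at the young and of 1.14 at the adult age, a difference of −2.08. Hmgb1 had −0.23 and 1.18, a difference of −1.41. Atf3 had 1.11 and −0.29, a difference of 1.39. After median-of-ratios scaling the adult values were 0.86 for Vcan and Hmgb1 and −0.59 for Atf3, so that Vcan and Hmgb1 no longer passed 2-fold. Each value compares 2 pooled libraries, and these differences between the ages were not tested. Of the 10 members, 0 had opposite signs at the 2 ages on the deposited values, and after quantile normalization Tlr3 did, with −0.04 in young and 0.32 in adult cartilage.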

How the results depend on the processing

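No paired analysis was possible because every group is 1 pooled library and the labels carry no replicate numbers. In young cartilage the count of members at least 2-fold higher after injury, 5, became 2 with a pseudocount of 5 FPKM, 8 at a limit of 1.5-fold and 3 at 3-fold. In adult cartilage the count of 7 became 1 with a pseudocount of 5 FPKM, 4 after quantile normalization and 0 at 3-fold. It rose, within 1.5 times its value, to 9 with a pseudocount of 0.1 FPKM, 8 with an equal FPKM total and 9 at 1.5-fold. The adult median log2 ratio of 1.12 became 0.47 with a pseudocount of 5 FPKM. A larger pseudocount shrinks the ratio of low genes by construction. Between the injured libraries the count of 0 members higher in young cartilage became 1 with a pseudocount of 0.1 FPKM, which was Tlr8, and 2 at 1.5-fold. The filter on low values keeps every member and cannot move a ratio. Of 200 log2 ratios of single members under the other alternatives, 180 moved by 1.5-fold or less, 20 by more, and 0 of those past 2-fold changed sign. The count of 6 members with the larger injury ratio in young mice ranged from 4 to 6. Low depth limits Tlr1, Tlr7, Tlr8, Tlr9 and Ly96 in the sham libraries, and Ly96 rested on about 67 fragments in young and 41 in adult sham.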
